A study of Caenorhabditis elegans with 8 samples.

Results

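The peripheral subcomplex of the intraflagellar transport particle IFT-B is represented here by 6 genes, *osm-1*, *che-2*, *che-13*, *dyf-3*, *dyf-11* and *ift-20*, out of 25478 genes with a probe set of their own on the array. They were chosen by name, with earlier results of these data known. Each is read from the only probe set that the platform annotation gives to it alone. Their transcripts were measured in whole-animal RNA from 4 samples of *dyf-1(mn335)*, a mutant of another IFT-B gene in which sensory cilia lack their distal segments, and from 4 samples of wild-type (N2 Bristol). All worms were age-synchronised hermaphrodites at day 1 of adulthood, each sample pooled many animals, and the strains are not stated to differ in any other allele. Values are log2 expression values after RMA, in which 1 unit is a doubling, and a mean under 5 in a strain is called dim, since the size of a change is then uncertain.

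Intraflagellar transport carries building material along the microtubules of a cilium, with kinesin motors moving the IFT particles to the tip and dynein returning them. The particles consist of IFT-A and IFT-B, and IFT-B of a core, to which DYF-1 belongs, and a peripheral part. In adult hermaphrodites of *C. elegans*, cilia are found only on sensory neurons, where these particles build the endings that sense odours, tastes and temperature. Loss of the peripheral proteins leaves short or malformed cilia, hence the gene names for osmotic avoidance (*osm*), chemotaxis (*che*) and dye filling (*dyf*) defects.

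The mutated gene itself was measured first. The *dyf-1* transcript was at 6.85, 7.02, 7.30 and 7.48 in the mutant arrays against 6.26, 6.01, 5.61 and 6.07 in wild-type (log2 fold change 1.18, standard error 0.19, limma, adjusted p = 0.0031). Its level was thus higher in the mutant on every array. Since no source used here gives the lesion of *mn335*, this transcript is no test of the sample labels. Of the arrays, wild-type replicate 4 stood apart. Its correlation with the other wild-type arrays was 0.958 to 0.974, below the 0.976 to 0.978 it had with mutant replicates 1 to 3, and mutant replicate 4 correlated with the other mutants at 0.978 to 0.984, below the 0.993 to 0.994 among these. The results for the peripheral genes are therefore also given without these arrays, and those of some marker lists without wild-type replicate 4. Counts for the other lists are over all arrays only. Ciliated neurons make up a small part of a whole worm, and more cells of a type cannot be told apart from more RNA per cell.

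All 6 peripheral genes were higher in *dyf-1(mn335)* at an adjusted p under 0.01 (limma with Benjamini-Hochberg adjustment over all 29317 probe sets), and 0 were lower, whereas 6.56% of all probe sets were called higher. On every one of the 6, each mutant array lay above each wild-type array, which held for 12.6% of all probe sets. The log2 fold changes ran from 0.77 to 2.42, with a median of 1.53 beside -0.04 for all probe sets, and 4 of the 6 rose at least 2-fold. The median log2 value of an array was itself higher in the mutant, at 5.30 to 5.36 against 5.14 to 5.21 in wild-type. After centring on these medians the 6 genes had a median of 1.38, and 5 of the 6 were called higher. For each gene the exact two-sided permutation test gave p = 0.0286, the smallest value that 4 arrays against 4 allow. The count depended on single arrays. It was 3 of 6 without mutant replicate 1 or 3 or wild-type replicate 1 or 2, 4 of 6 without mutant replicate 2 or 4, 5 of 6 without wild-type replicate 3, and 6 of 6 without wild-type replicate 4 or without replicate 4 of both strains. The higher calls over all probe sets moved too, from 1924 to 932 without wild-type replicate 2 and 3893 without wild-type replicate 4. They were 4977 without replicate 4 of both strains. With the replicate number as a block, 1 of the 6 genes and 236 probe sets in all were called higher.

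**Figure D1:**
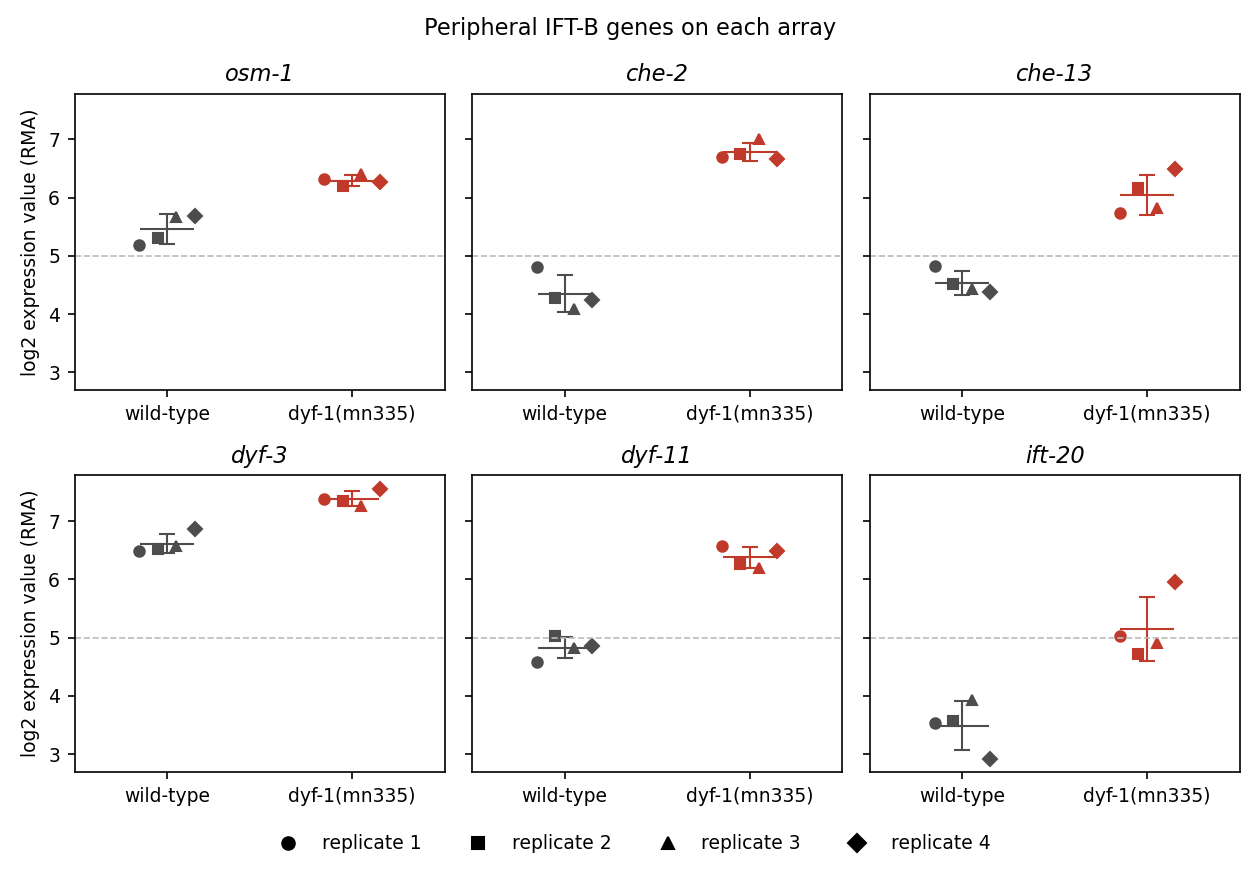
Log2 expression value of each peripheral IFT-B gene on each array (vertical axis), by strain (horizontal axis). Points are arrays with a symbol per replicate number, long ticks with bars are the mean and SD of 4 arrays, and the dashed line is the level of 5 under which a strain mean is called dim. In every panel the 4 mutant points lie above the 4 wild-type points, by the widest gap in *che-2* (1.85).

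*osm-1* and *che-2* encode the orthologues of vertebrate IFT172 and IFT80, large proteins with WD40 repeats. *che-2* was at 6.70, 6.75, 7.0 and 6.66 in the mutant arrays and at 4.81, 4.27, 4.09 and 4.25 in wild-type. It rose from a dim mean of 4.35 ± 0.31 to 6.78 ± 0.15 (SD, n = 4), and the lowest mutant array was 1.85 above the highest wild-type array. Its log2 fold change of 2.42 (standard error 0.18, 5.36-fold, limma, adjusted p = 0.00012) was the highest of the 6, and 0.538% of all genes rose more. *osm-1* was at 6.31, 6.20, 6.40 and 6.27 in the mutant and at 5.19, 5.30, 5.66 and 5.69 in wild-type. The mutant arrays lay close together, and the gap between the strains was 0.51. The means of 6.29 ± 0.09 and 5.46 ± 0.25 (SD, n = 4) gave a log2 fold change of 0.83 (standard error 0.15, 1.78-fold, limma, adjusted p = 0.0052), which 10.5% of all genes exceeded.

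*che-13* and *dyf-3* encode the orthologues of IFT57 and of IFT38 (CLUAP1), which bind each other in the IFT-B of green algae and mammals. *che-13* was at 5.74, 6.16, 5.82 and 6.49 in the mutant arrays and at 4.83, 4.52, 4.43 and 4.38 in wild-type. It went from a dim mean of 4.54 ± 0.20 to 6.05 ± 0.34 (SD, n = 4), a log2 fold change of 1.51 (standard error 0.19, 2.85-fold, limma, adjusted p = 0.0010). Mutant replicate 4 was the highest array, 0.58 above the mean of the other mutants. *dyf-3* was at 7.38, 7.35, 7.25 and 7.56 in the mutant and at 6.50, 6.52, 6.58 and 6.87 in wild-type. In both strains replicate 4 was the highest array, and the strains were separated by 0.39, the narrowest gap of the 6 genes. From 6.62 ± 0.17 to 7.38 ± 0.13 (SD, n = 4), *dyf-3* rose by a log2 fold change of 0.77 (standard error 0.14, 1.70-fold, limma, adjusted p = 0.0047).

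*dyf-11* and *ift-20* encode the orthologues of IFT54 (TRAF3IP1) and IFT20, a second pair of coiled-coil proteins that bind each other. *dyf-11* was at 6.58, 6.26, 6.20 and 6.49 in the mutant arrays and at 4.59, 5.03, 4.82 and 4.86 in wild-type. It rose from a dim mean of 4.82 ± 0.18 to 6.38 ± 0.18 (SD, n = 4), a log2 fold change of 1.55 (standard error 0.15, 2.94-fold, limma, adjusted p = 0.00033), with a gap of 1.16 between the strains. *ift-20* was at 5.02, 4.71, 4.90 and 5.95 in the mutant and at 3.54, 3.56, 3.94 and 2.92 in wild-type. The replicate 4 arrays were here the highest mutant and the lowest wild-type values. The means of 5.15 ± 0.55 and 3.49 ± 0.42 (SD, n = 4) had the largest SDs of the 6 genes, and the wild-type mean was dim. The log2 fold change of 1.66 (standard error 0.30, 3.16-fold, limma, adjusted p = 0.0048) was 1.20 without replicate 4 of both strains (adjusted p = 0.00061).

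**Figure D2:**
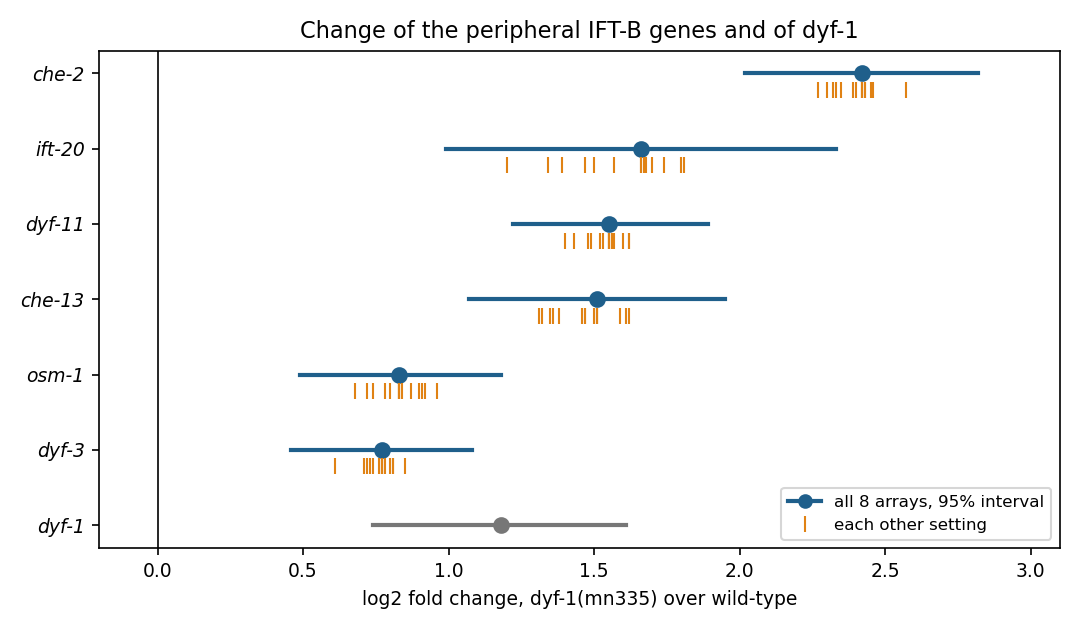
Log2 fold change of *dyf-1(mn335)* over wild-type (horizontal axis) for each peripheral IFT-B gene and for *dyf-1*. Circles with lines are the limma estimates over all 8 arrays with their 95% intervals, and orange ticks are the estimates under each other setting, which were not drawn for *dyf-1*. All intervals lie above 0, from 0.46 for the lower bound of *dyf-3* to 2.82 for the upper bound of *che-2*, and the ticks of *ift-20* spread furthest, from 1.20 to 1.81.

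The calls of *che-2*, *che-13* and *dyf-11* held when any single array was left out, at an adjusted p of at most 0.0053 (limma). Those of the other 3 genes lay closer to the threshold. *osm-1* passed without wild-type replicate 3 or 4 only, and was at an adjusted p of 0.011 to 0.021 without any of the other 6 arrays. *dyf-3* passed without wild-type replicate 4 only, and was otherwise at 0.011 to 0.019. *ift-20* was not called without mutant replicate 1 or 3 or wild-type replicate 1 or 2, at 0.013 to 0.017. The estimates themselves ran from 0.74 to 0.91 for *osm-1* and from 0.71 to 0.85 for *dyf-3*, and more widely for *ift-20*, from 1.39 to 1.81.

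**Figure D3:**
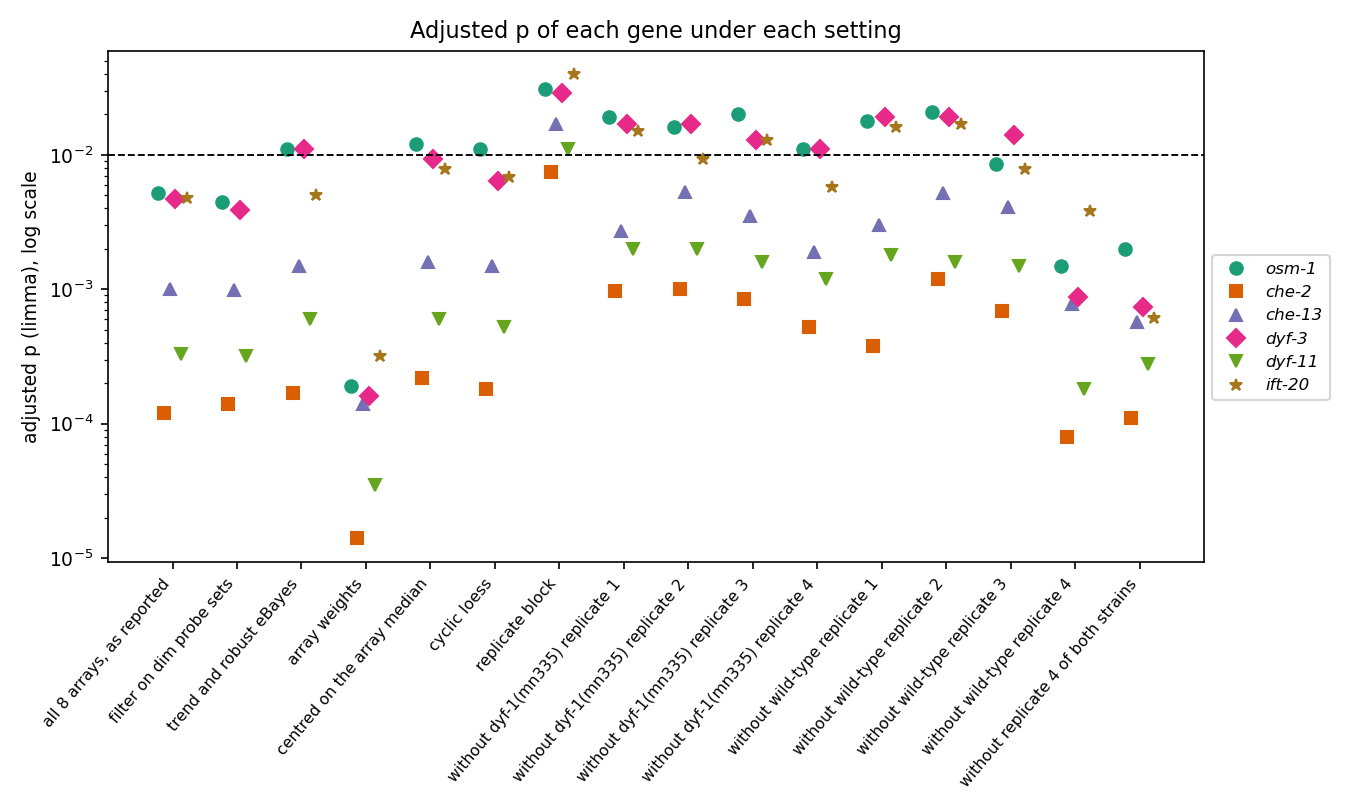
Adjusted p from limma on a log scale (vertical axis) for each peripheral IFT-B gene (symbols) over all 8 arrays and under each other setting (horizontal axis). The dashed line is the threshold of 0.01. *che-2* lies below it under every setting, *che-13* and *dyf-11* under every setting except the replicate block, and *osm-1*, *dyf-3* and *ift-20* cross it, with no *ift-20* value under the filter on dim probe sets, which removes it.

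Unequal rises among the 6 genes were tested within arrays, as the log2 value of one gene minus that of another, for all 15 pairs. In 8 pairs the mutant and wild-type arrays differed at the smallest possible p of 0.0286 (exact two-sided permutation test), which became 0.0536 after adjustment over the 15 pairs, so that 0 pairs passed at 0.05. As no p can be smaller, a lone pair could not pass whatever its difference, so this does not show that the rises were equal. *che-2* rose by 1.65 more than *dyf-3* (standard error 0.25) and by 1.59 more than *osm-1* (standard error 0.27) on the log2 scale, both among these 8. Of the binding partners, *che-13* was 0.74 above *dyf-3* in its rise (standard error 0.21, among the 8), whereas *ift-20* and *dyf-11* differed by 0.10 (standard error 0.34, exact p = 0.80, adjusted p = 0.857), a difference that was -0.13 without mutant replicate 4 and -0.10 without wild-type replicate 4. *osm-1* and *dyf-3* differed by 0.06 (standard error 0.12, exact p = 0.60, adjusted p = 0.725), and by -0.02 without mutant replicate 3. The 4 genes with a dim wild-type mean had log2 fold changes of 1.51 to 2.42, and the 2 others 0.83 and 0.77.

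Averaged over the 6 genes, with each set to its wild-type mean, the mutant arrays were at 1.41, 1.36, 1.38 and 1.69 and the wild-type arrays at 0.03, -0.01, 0.04 and -0.05. The mean rise was thus similar on mutant replicates 1 to 3 and higher on replicate 4, where *ift-20* (2.46) and not *che-2* had the highest value. Mutant replicate 4 was above the mean of the other mutant arrays by 1.07 in *ift-20* and 0.58 in *che-13*. The excess was 0.23 in *dyf-3* and 0.14 in *dyf-11*, and the array was below that mean in *osm-1* (-0.04) and *che-2* (-0.16). Wild-type replicate 4 lay on the mutant side of the other wild-type arrays in part of these genes. It was 0.30 above wild-type replicates 1 to 3 in *osm-1* and 0.33 in *dyf-3*, where mutant replicates 1 to 3 were 0.92 and 0.80 above them. It was 0.04 above them in *dyf-11*, and below them in *che-2* (-0.14), *che-13* (-0.21) and *ift-20* (-0.76).

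Most other genes of the cilium rose as well. Of 45 such genes in 6 lists, *dyf-1* among them, 35 were called higher and 0 lower. The median of their log2 fold changes was 1.36, and 28 of the 45 were dim in wild-type, so that the size of those changes is uncertain. All 8 genes of the IFT-B core rose (median 1.70), the mutated *dyf-1* included. They ran from *ifta-2*, the orthologue of IFT22 and dim in both strains, at 0.72 to *ift-81* at 2.94. Of 6 IFT-A genes, 4 rose (median 1.57), with *ift-139*, dim in wild-type, at 2.96, while *ift-43* was at 0.12 (limma, adjusted p = 0.54). The peripheral genes therefore fell within the range of the other IFT genes, and no difference between these lists was tested.

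All 7 BBSome genes, whose products adapt cargo to the IFT particles, were higher (median 1.36), with *bbs-1*, dim in wild-type, at 2.0 and *bbs-5* at 1.18. Of 7 motor genes, 5 rose (median 0.83), with the dynein heavy chain gene *che-3* at 1.51, while *kap-1* of the kinesin-II complex was at -0.05 (limma, adjusted p = 0.79). Of 11 transition zone genes, 6 rose (median 0.83), with *tmem-231*, dim in wild-type, at 1.63. *mks-1*, dim in both strains, was at -0.08 (limma, adjusted p = 0.75). Of 6 ciliary regulators, 5 rose (median 1.44), with the kinase gene *dyf-18*, dim in wild-type, at 1.78. The GTPase gene *arl-13* was at 0.79 (limma, adjusted p = 0.018). *daf-19*, the gene of the RFX transcription factor that activates many IFT genes, is among those that rose, with a log2 fold change of 1.44 (standard error 0.29, limma, adjusted p = 0.0082).

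**Figure D4:**
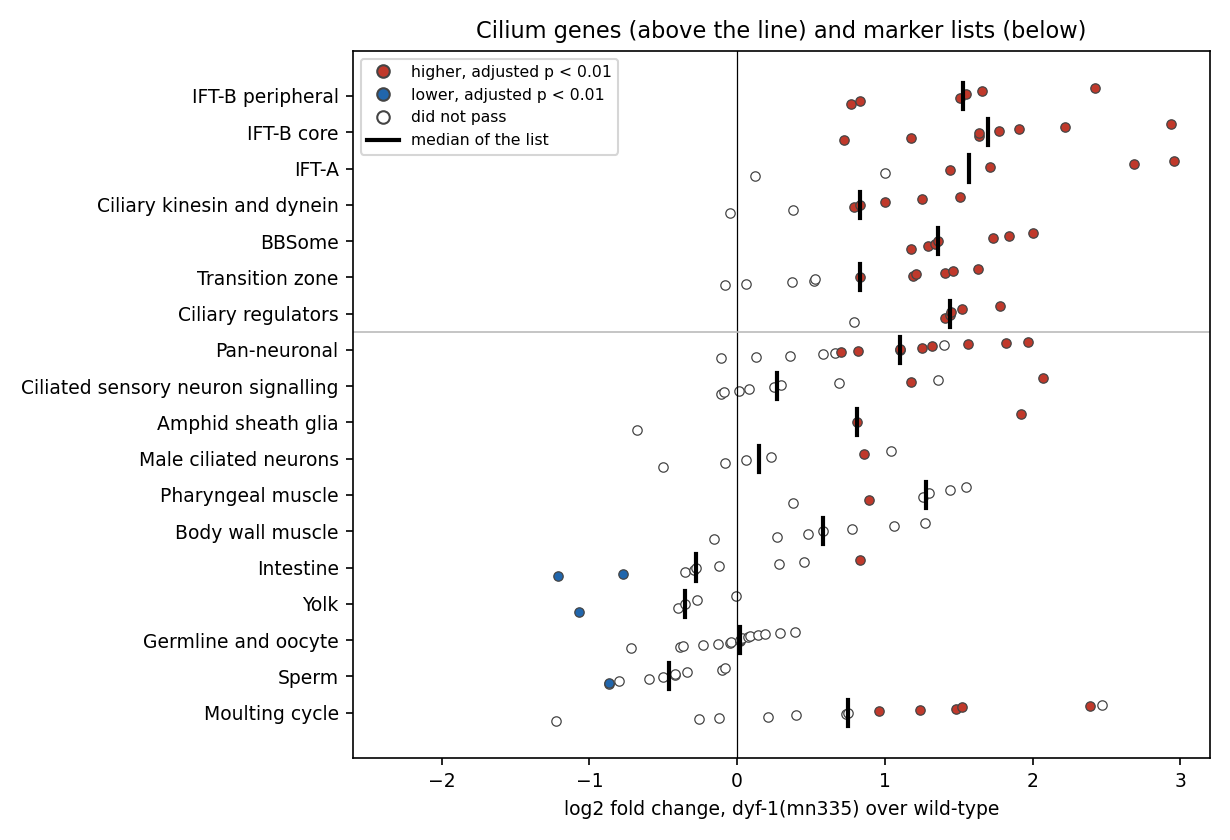
Log2 fold change of *dyf-1(mn335)* over wild-type (horizontal axis) for each gene (circles) of the cilium lists, above the grey line, and of marker lists, below it. Red and blue circles were higher or lower at an adjusted p under 0.01, open ones did not pass, and black ticks are list medians. The peripheral IFT-B genes are all red, from 0.77 to 2.42. The ciliated sensory signalling list has a median of 0.27 against 1.10 for the pan-neuronal list, a difference that was not tested. Of these lists, 5 of 10 and 15 of 15 genes had wild-type means of 5 or more.

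Markers of neurons, of ciliated sensory neurons and of glia were read beside these genes, and their part in the result was not tested. Of 15 pan-neuronal markers, 9 rose and 0 fell (median 1.10), with *rab-3* at 1.82 and *ric-4* at 1.25, both of synaptic release. Their mean level was 9.06 to 9.17 on the mutant and 8.0 to 8.49 on the wild-type arrays. Of 10 signalling genes of ciliated sensory neurons, 2 rose and 0 fell (median 0.27), the G protein gene *odr-3* at 2.07 and the cyclic nucleotide channel gene *tax-2* at 1.18. Their mean level was 5.57 to 5.81 and 5.01 to 5.14, and 3 of them, with *tax-4*, were dim in both strains. Only 5 of these 10 genes had a wild-type mean of 5 or more, against all 15 pan-neuronal markers. The difference between these lists was not tested. Of 3 amphid sheath glia genes, *daf-6* (1.92) and *kcc-3* (0.81) rose, at mean list levels of 6.63 to 7.21 and 6.03 to 6.56. The third, *vap-1*, went the other way without passing (-0.68, limma, adjusted p = 0.22). All 6 marker genes of male ciliated neurons were dim in both strains, *pkd-2* and *lov-1* among them, and 1, *cwp-4*, rose by 0.86, with mean levels of 3.59 to 3.81 and 3.36 to 3.53.

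Some genes of lists outside the nervous system were called as well. Of 13 genes of the moulting cycle, 5 rose and 0 fell (median 0.75), *qua-1* (0.96) and *mlt-8* (1.48) among them, with mean levels of 6.67 to 7.49 in the mutant and 6.08 to 6.91 in wild-type. Of 6 genes of pharyngeal muscle, *tni-4* rose by 0.89 and 0 fell (median 1.28), at mean levels of 8.95 to 9.63 and 7.92 to 8.99. Without wild-type replicate 4, 5 of the 6 were higher. Of 7 genes of body wall muscle 0 were called (median 0.58), and 5 were higher without that array. For yolk, 0 of 5 genes rose and *vit-1* fell by 1.07 (median -0.35), at 11.6 to 11.9 and 11.7 to 12.4. Relative to wild-type replicates 1 to 3, wild-type replicate 4 was at a median of 1.33 in the pharyngeal, 0.60 in the moulting and 0.37 in the pan-neuronal list. Set against the same 3 wild-type arrays, the medians of mutant replicates 1 to 3 were 1.84, 1.16 and 0.99. In body wall muscle these medians were 1.04 for wild-type replicate 4 and 0.97 for the mutants. For the peripheral IFT-B genes the same medians were -0.05 and 1.26. By median, wild-type replicate 4 was above the others in IFT-A (0.5), motor (0.35), regulator (0.31), BBSome (0.21) and IFT-B core (0.12) genes. It was below them in transition zone genes (-0.2). For the tissues of a whole adult, all 7 body wall muscle, 9 intestinal and 16 germline genes measured had wild-type means of 5 or more.

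Over all 8 arrays, the genes most like the mean profile of the 6 peripheral genes were *pugs-2*, *K03C7.4*, *B0511.11*, *T23G5.9* and *cut-2*, with Pearson correlations of 0.997, 0.996, 0.995, 0.995 and 0.994. Since the strains differ in this profile, any gene with an even rise scores high, and 469 of 25472 genes were above 0.95. *B0511.11* rose by 2.13, *T23G5.9* by 1.84, *K03C7.4* by 1.13, *pugs-2* by 0.97 and the cuticlin gene *cut-2*, dim in both strains, by 0.78 (limma, adjusted p at most 0.0021). Of the 45 other cilium genes, 26 had a correlation over 0.9 with the peripheral genes (median 0.93), a limit that 1229 of all genes (4.82%) exceeded. The highest were *che-3*, *che-11*, *ift-81*, *bbs-4*, *bbs-9* and *nphp-4*, each at 0.99.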

How the data were processed

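Total RNA of whole worms was hybridised to Affymetrix *C. elegans* gene arrays, 4 per strain, and the strains come from the sample titles. The authors adjusted background, normalised between arrays by quantiles and summarised probe sets with RMA (R package oligo), and deposited log2 values for 29317 probe sets and 8 arrays. The arrays' number limits the precision. These steps can compress changes of dim probe sets. The platform annotation named 25546 probe sets with 1 gene, 646 with several (not used) and 3125 with none. No coordinates are printed, since no build is named for them, and no sequences, since no table of them was given.

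The strains were compared over all 8 arrays without covariates (limma 3.58.1, functions lmFit and eBayes, R 4.3.3), with two-sided p-values and a Benjamini-Hochberg adjustment across every probe set, and with calls at an adjusted p under 0.01. Single values were compared with exact permutation tests (scipy 1.17.1). The fit was tried on simulated data with independent noise for each probe set and array, which hold no shift of a whole array. The arrays are independent biological experiments according to the study, while the labels number them as replicates only.

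The peripheral genes and the lists, written from general knowledge, were chosen with earlier results of these data known. Named are the 6 genes, *dyf-1*, the highest called and the lowest gene of each cilium list, up to 2 marker genes per list by adjusted p, and the 5 genes of most similar profile. *daf-19*, *tax-4*, *vap-1*, *pkd-2*, *lov-1*, the cilium genes named for their correlation, and neighbouring genes were named after their values were seen. A second list of genes, most similar in deviations from the strain means, is in the closing section. For germline, sperm, intestine and body wall muscle, 0, 0, 1 and 0 genes rose and 0, 1, 2 and 0 fell, where body wall muscle had 5 higher without wild-type replicate 4 and germline 1 lower. No source used here states that replicate numbers pair the samples. Alternatives were a threshold of 0.05, a filter on mean log2 values under 5, an intensity trend with robust spread, array weights, centring on array medians, cyclic loess, the replicate number as a block, and leaving out arrays. Each of the 6 genes has 1 probe set, so the mean over probe sets was the same value.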

Additional observations from a re-analysis of the deposited data

How the results depend on the processing

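No alternative turned the direction of a gene. *che-2* passed under all 15 alternative fits, *che-13* and *dyf-11* under 14 of 15, *ift-20* under 9 of the 14 that could test it, *dyf-3* under 6 and *osm-1* under 5 of 15. The filter on dim probe sets left *ift-20* out. With trend and robust spread in eBayes, *osm-1* (0.83) and *dyf-3* (0.77) were at an adjusted p of 0.011, and *osm-1* missed the threshold after centring (0.68, 0.012) and cyclic loess (0.72, 0.011). Under centring the peripheral genes' median went from 1.53 to 1.38, while that over every probe set went from -0.04 to -0.19, and gave 1653 lower calls.

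Same-numbered samples of the 2 strains had correlations of deviations of -0.31, 0.01, -0.20 and -0.57, and 0 of 4 mutant samples matched its own number best. Mutant replicates 1 to 3 all matched wild-type replicate 4 best, the array that stood apart, so this does not settle whether samples were paired. With the replicate block 1 of the 6 genes, *che-2*, was called (236 probe sets higher and 79 lower in all), and *osm-1* (0.83), *che-13* (1.51), *dyf-3* (0.77), *dyf-11* (1.55) and *ift-20* (1.66) were at an adjusted p of 0.031, 0.017, 0.029, 0.011 and 0.040.

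Without any 1 array, 3 to 6 of the 6 genes and 932 to 3893 higher and 324 to 3788 lower probe sets were called, where all arrays gave 1924 and 1015. The values were 0.74 to 0.91 for *osm-1*, 0.71 to 0.85 for *dyf-3* and 1.39 to 1.81 for *ift-20*. Without replicate 4 of both strains 4977 and 4781 probe sets were called, with array weights 5489 and 5391, and at an adjusted p under 0.05, 3848 and 3419. The cause was not tested. Among pairs that did not pass, *ift-20* minus *dyf-11* (0.10) was -0.13 (without mutant replicate 4) to 0.25 without any 1 array, -0.10 without wild-type replicate 4 and -0.33 without replicate 4 of both strains, which also gave -0.11 for *ift-20* minus *che-13* (0.15). *dyf-11* minus *che-13* (0.04) was -0.13 (without mutant or wild-type replicate 1) to 0.15, and *osm-1* minus *dyf-3* (0.06) was -0.02 (without mutant replicate 3) to 0.14. Among the 15 pairs of genes 0 passed after cyclic loess too, centring cancels within an array, and without an array the permutation test cannot reach 0.05.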

Other observations

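Within the strains the 6 peripheral genes did not vary together. The deviations from the strain means, over 8 arrays, correlated at -0.71 (*che-2* with *dyf-11*) to 0.55 (*che-13* with *ift-20*), with a median of 0.04 over the 15 pairs and 8 of them above 0. These deviations share arrays and their normalisation. The genes whose deviations were most like the mean of the 6 were *Y61A9LA.10*, *flp-27*, *C10F3.14*, *irld-49* and *T08G2.7*, with Pearson correlations of 0.993, 0.991, 0.990, 0.988 and 0.987, and none of these passed between the strains (log2 fold changes of -0.19, 0.02, 0.15, -0.02 and -0.22; limma, adjusted p of 0.32 to 0.96).

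Of the 12 protein-coding genes next to the 6 genes in the gene order of assembly WBcel235, 11 were measured, 3 were higher in *dyf-1(mn335)* and 0 lower, with a median log2 fold change of 0.51. The higher ones were *aex-3* beside *dyf-11* (1.46), *C30F8.3* beside *ift-20* (1.06) and *F38G1.3* beside *che-2* (0.74; limma, adjusted p of 0.0033, 0.0046 and 0.0055). *aex-3*, which acts in synaptic release through RAB-3, rose nearly as much as its neighbour (1.55), while *trap-2* on the other side of *dyf-11* was at -0.14 (limma, adjusted p = 0.48).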
